A study of Mus musculus with 2 samples.

Results

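The 10 genes described here code for the transcription factor AP-1 and for factors switched on together with it: Fos, Fosb, Fosl1, Fosl2, Jun, Junb, Jund, Atf3, Egr1 and Ier2. They were chosen by name, as all biological probes that carry one of these symbols in the scanner tables, which gave 10 of 29924 gene names and 11 of 39429 probes. Ureters of NMRI wildtype mouse embryos were explanted at E12.5 and cultured for 18 h without serum. BIO (6-bromoindirubin-3-oxime) inhibits the kinase GSK3 and thereby activates canonical WNT signaling. It was given at 10 µM, and the control explants received DMSO at 2 parts per 1000. Each RNA sample came from a pool of ureters whose sex was not determined, and each array carried 1 control and 1 BIO sample in different colors. There were 2 arrays with exchanged dyes, BIO in red on replicate 1 and in green on replicate 2, and thus 2 biological replicates. The comparison asked how WNT activation changes the transcriptome of the early ureter.

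AP-1 is a dimer. The FOS proteins pair with JUN proteins through a leucine zipper, JUN proteins can also pair with each other, and the dimers bind the DNA element TGACTCA. Genes such as Fos, Jun, Egr1 and Ier2 are immediate early genes: growth factors, serum and stress turn them on within minutes without new protein synthesis, and their RNAs are short-lived. GSK3, the target of BIO, phosphorylates JUN protein and thereby marks it for degradation, and Jun and Fosl1 have been described as targets of beta-catenin in tumor cells. The RNA was taken at 18 h only, so that a brief early response was not measured, and RNA levels do not report phosphorylation or protein.

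The promoter table of RefSeq (GRCm38.p6) held 7 of the 10 genes, with no entry for Fosl1, Egr1 and Ier2. The 250 bases before the start of transcription are shown for Fos, the only gene of the set that fell, for Jun, whose arrays differed most within the set, and for Atf3, which held the rarest of the elements searched. Capitals mark TGACG, the core of the element bound by CREB and ATF factors, and TATAA in Fos, the AP-1-like element TGACATCA in Jun, and TTACGTCA in Atf3. Fos lies at chr12:85473640-85473889 on the plus strand, Jun at chr4:95052223-95052472 and Atf3 at chr1:191183334-191183583, both on the minus strand, and all are written 5′ to 3′ along the gene.
Fos: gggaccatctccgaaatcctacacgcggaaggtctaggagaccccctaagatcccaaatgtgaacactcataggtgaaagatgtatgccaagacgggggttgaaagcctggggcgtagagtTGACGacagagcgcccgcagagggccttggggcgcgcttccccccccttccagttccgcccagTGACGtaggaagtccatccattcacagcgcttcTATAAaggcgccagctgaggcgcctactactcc
Jun: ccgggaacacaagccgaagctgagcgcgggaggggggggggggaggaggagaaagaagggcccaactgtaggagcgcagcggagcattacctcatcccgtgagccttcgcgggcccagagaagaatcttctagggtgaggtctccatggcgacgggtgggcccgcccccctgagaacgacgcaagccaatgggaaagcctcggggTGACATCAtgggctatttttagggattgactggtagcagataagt
Atf3: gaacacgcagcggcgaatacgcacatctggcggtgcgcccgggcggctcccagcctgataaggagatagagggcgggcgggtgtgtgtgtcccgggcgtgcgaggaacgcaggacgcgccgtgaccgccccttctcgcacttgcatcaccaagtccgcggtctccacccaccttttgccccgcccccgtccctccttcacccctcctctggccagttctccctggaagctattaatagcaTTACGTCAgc

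Fos held TGACG at 129 to 125 and at 66 to 62 bases before the start and TATAA at 33 to 29. In Jun the element TGACATCA lay 45 to 38 bases before the start, and in Atf3 the element TTACGTCA lay 10 to 3 bases before it, where it overlaps a TGACG on the opposite strand. On either strand, TGACG occurred in 4 of the 7 genes (Fos, Fosb, Junb and Atf3) and in 17.8% of the 32851 promoters of the table. TGACATCA occurred in 2.93% of all promoters and TTACGTCA in 0.447%. The consensus AP-1 element TGACTCA (4.46% of all promoters), the full CREB element TGACGTCA (1.55%, which contains TGACG), the TCF core CTTTGA (13.8%) and the CArG box bound by SRF (1.47%) were found in 0 of the 7 stretches. These matches describe letters in a short window and are not measured binding sites.

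Fos fell with BIO, and no other gene of the set was called. Of the 10 genes, 0 rose and 1 fell after BIO treatment (limma on 2 arrays, adjusted p below 0.05 over 28824 probes), where 9.14% of all 21598 genes tested rose and 14.8% fell. For 10 genes these counts lie near the shares over all genes. At an unadjusted p below 0.05 (limma), 0 of the 10 rose and 3 fell (Fos, Jund and Egr1). The shares of all genes at an unadjusted p were not counted. They cannot be lower than those at the adjusted p, so that the 3 cannot be set against the 14.8%. The median log2 ratio of the 10 genes was -0.09, that of all genes -0.01, and the members ranged from -0.57 for Fos to 0.44 for Jun. On both arrays 6 of the 10 genes were lower with BIO, where 38.1% of all genes were, and 0 were higher on both, where 34.7% of all genes were. Fosl1, 1 of the 6, passed the filter on low signals through its control channels only, and of the 9 genes above background in both channels 5 were lower on both arrays. None of the 10 reached a 2-fold difference on both arrays with a brighter channel of at least 100, the rule the study states for its other arrays, which 0.752% of all genes passed upwards and 1.47% downwards.

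**Figure D1:**
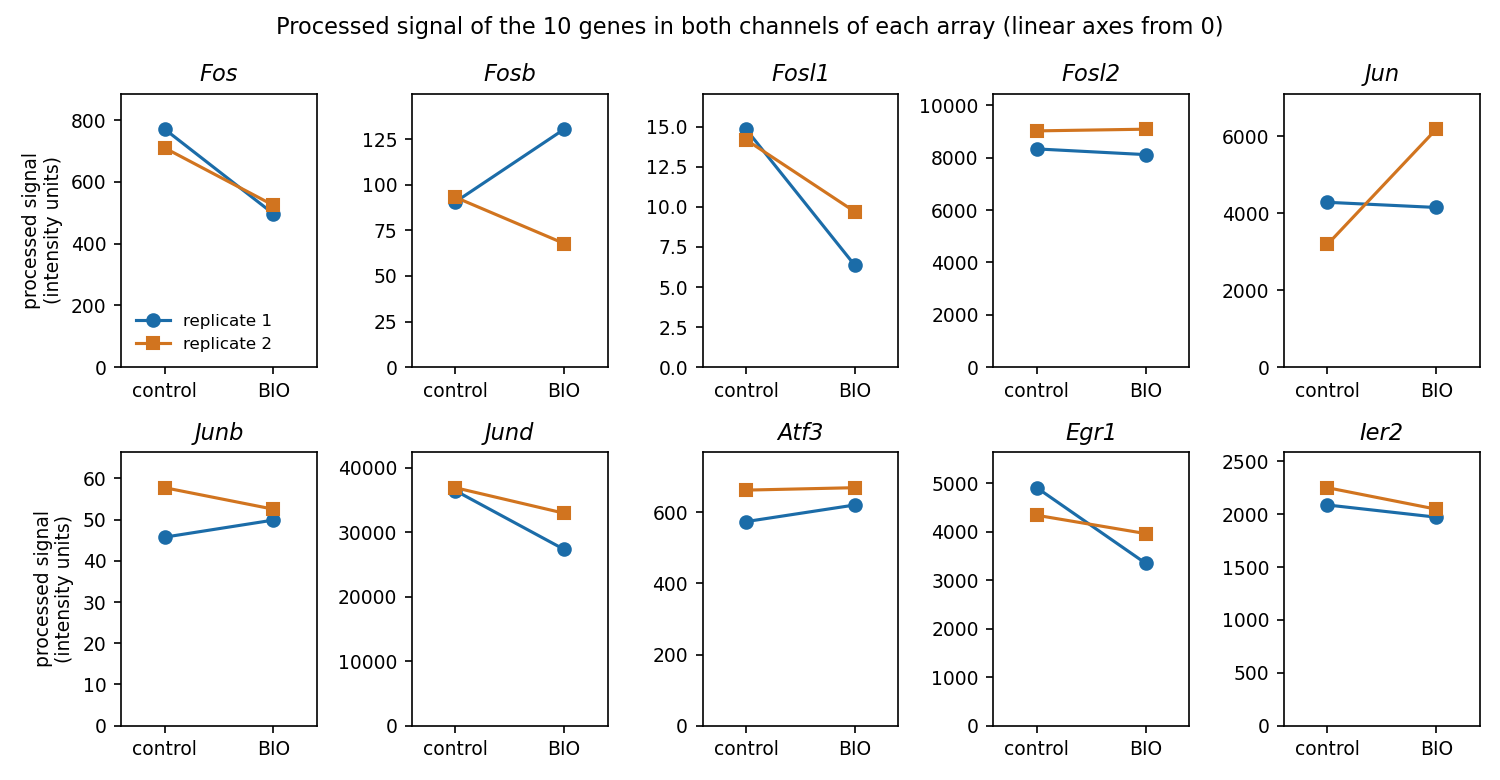
Processed signal (intensity units, linear axes from 0) of the 10 genes in the control and BIO channels; each line joins the channels of 1 array, circles for replicate 1 and squares for replicate 2. Fos drops on both arrays, from 771 to 497 and from 710 to 524, while Jun and Fosb run differently on the arrays.

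Among the FOS family, Fos (NM_010234, probe on chromosome 12 at 86817900 to 86817959, mm9), the founding member and an obligate partner of JUN proteins, was the gene that fell. In replicate 1 its processed signal dropped from 771 in the control channel to 497 in the BIO channel, and in replicate 2 from 710 to 524. Both BIO values lay below both control values. The log2 ratios were -0.69 and -0.45, with a mean of -0.57 ± 0.115 (SE), a 95% interval of -0.84 to -0.30 and an adjusted p of 0.00959 (limma), a level 1.48-fold lower with BIO. The 4 spots of the probe gave ratios from -0.78 to -0.52 in replicate 1 and from -0.66 to -0.34 in replicate 2. Only 7.75% of the probes tested had a lower ratio. The call was lost with the scanner's processed signals (-0.54, adjusted p = 0.0694, limma) and with the authors' table of fold values (-0.58, adjusted p = 0.160). In RNA of whole explants, fewer cells of a type and less RNA per cell cannot be told apart.

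The other FOS genes gave no call. Fosb (NM_008036, chromosome 7, 19888168 to 19888227), which like Fos is induced by growth factors, had a signal of 90.6 in control against 130 with BIO in replicate 1, but of 93.1 against 67.8 in replicate 2. The control channels thus lay close together and the BIO channels on either side of them. With the dyes exchanged, the red channel was the higher on both arrays. A dye difference of this probe and a difference between the pools cannot be told apart. Its log2 ratios of 0.32 and -0.37 had a mean of -0.02 ± 0.162 (SE; adjusted p = 0.940, limma), and 97.4% of the probes tested differed less between the arrays. Fosl2 (NM_008037, chromosome 5, 32460076 to 32460135), which codes for FRA2, had signals of 8339 and 8122 in replicate 1 and of 9028 and 9093 in replicate 2, control first. The groups overlapped and the channels of each array were nearly level, with a mean log2 ratio of -0.05 ± 0.108 and a 95% interval of -0.30 to 0.20. A second probe of Fosl2 (32455088 to 32455147) was well above background on 1 array per channel and was not tested.

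Fosl1 (NM_010235, chromosome 19, 5455496 to 5455555), which codes for FRA1, was at the limit of detection. Control gave 14.8 and BIO 6.35 in replicate 1, and 14.2 and 9.70 in replicate 2, signals which all lie below the floor of 15 that was set for such signals. The scanner software marked the probe as well above background for control RNA on 2 arrays and for BIO RNA on 0. It thus passed the filter on low signals through control alone, the group with the higher signals. With the signals raised to the floor its ratio was 0 on both arrays, and no fold is given for Fosl1.

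Among the JUN family, Jun (NM_010591, chromosome 4, 94716928 to 94716987), whose protein is the most common partner of FOS, stood out by its arrays. In replicate 1 control gave a processed signal of 4286 and BIO of 4152, and in replicate 2 control gave 3191 and BIO 6187. The BIO signal was thus level with control on the first array and well above it on the second. The log2 ratios of -0.08 and 0.96 gave a mean of 0.44 ± 0.212 (SE) with a 95% interval of -0.05 to 0.92 and did not pass the test (adjusted p = 0.178, limma). The spots of each array lay close together, from -0.14 to -0.04 in replicate 1 and from 0.88 to 1.02 in replicate 2, so that the difference lay between the arrays and not between spots. Of the 28824 probes tested, 158 differed more between the arrays than Jun. Each dye orientation was used on 1 array, so that a dye difference of this probe and a difference between the pools cannot be told apart.

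Jund and Junb, the other JUN genes, gave no call. Jund (NM_010592, chromosome 8, 73224436 to 73224495), which is expressed steadily in most tissues, had signals of 36446 and 27330 in replicate 1 and of 36907 and 32946 in replicate 2, control first. Both BIO values lay below both control values. The log2 ratios were -0.39 and -0.21, with a mean of -0.30 ± 0.112 and a 95% interval of -0.56 to -0.04, and the adjusted p was 0.0903 (limma). Centering each array on its median instead of loess moved the mean to -0.05. Junb (NM_008416, chromosome 8, 87501881 to 87501940), which often dampens the activity of JUN, was dim, at 45.7 against 49.9 in replicate 1 and 57.7 against 52.5 in replicate 2, control first. The signals of the groups overlapped, and the mean log2 ratio was -0.05 ± 0.110 (adjusted p = 0.783, limma).

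**Figure D2:**
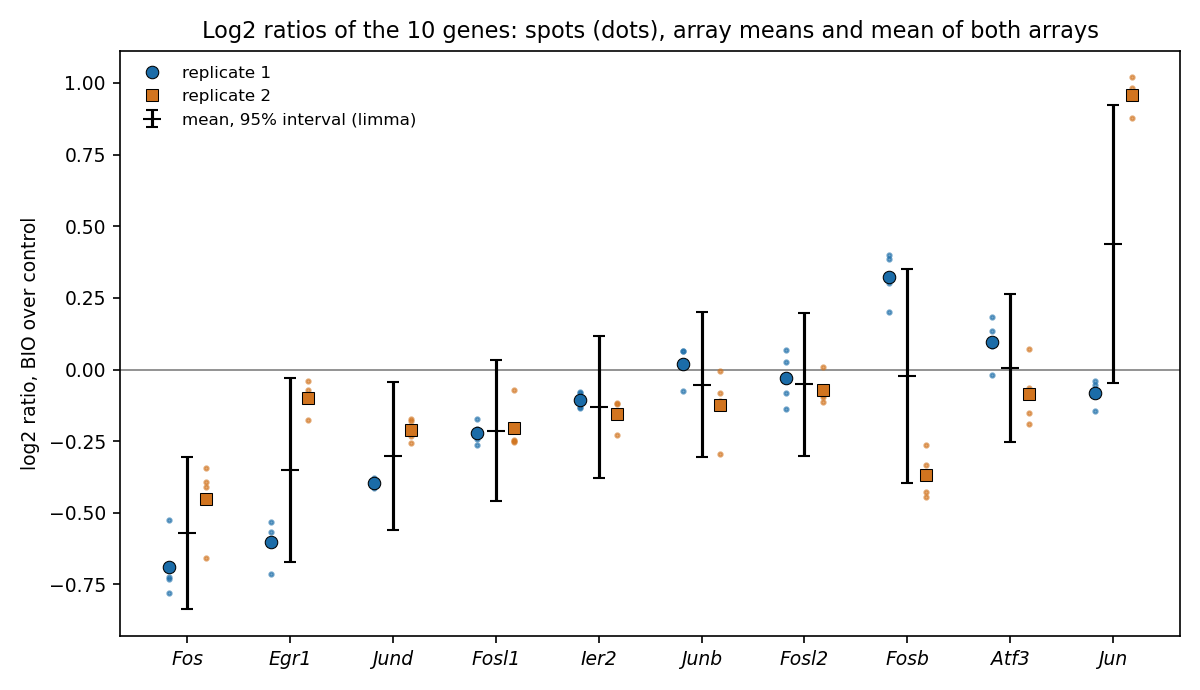
Log2 ratio of BIO over control for the 10 genes, sorted by their mean: small dots are single spots, circles and squares the means of replicates 1 and 2, and bars the mean of the arrays with its 95% interval from limma. Most intervals include 0, the arrays of Jun (-0.08 and 0.96) lie far apart, and the arrays of Fos (-0.69 and -0.45) both lie below 0.

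Atf3, Egr1 and Ier2 belong to the same response but not to the FOS and JUN families. Atf3 (NM_007498, chromosome 1, 192994547 to 192994606), a stress-induced factor that can pair with JUN proteins, had signals of 574 and 621 in replicate 1 and of 662 and 669 in replicate 2, control first. The groups overlapped. Its mean log2 ratio of 0.00 ± 0.112 had a 95% interval of -0.25 to 0.26. Ier2 (NM_010499, chromosome 8, 87186214 to 87186273), a nuclear regulator named for its immediate early induction, had signals of 2087 and 1972 in replicate 1 and of 2250 and 2047 in replicate 2. Both BIO values lay below both control values, but the log2 ratios of -0.11 and -0.15 were small and did not pass the test (adjusted p = 0.440, limma).

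Egr1 (NM_007913), the zinc finger factor that growth factor signaling induces through SRF, had signals of 4909 in control against 3351 with BIO in replicate 1, and of 4340 against 3963 in replicate 2. Both BIO values lay below both control values, but the difference was mostly in replicate 1. The log2 ratios were -0.60 and -0.10, with a mean of -0.35 ± 0.139 (SE), a 95% interval of -0.67 to -0.03 and an adjusted p of 0.109 (limma). Over the whole table the smallest log2 ratio called had a size of 0.35.

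**Figure D3:**
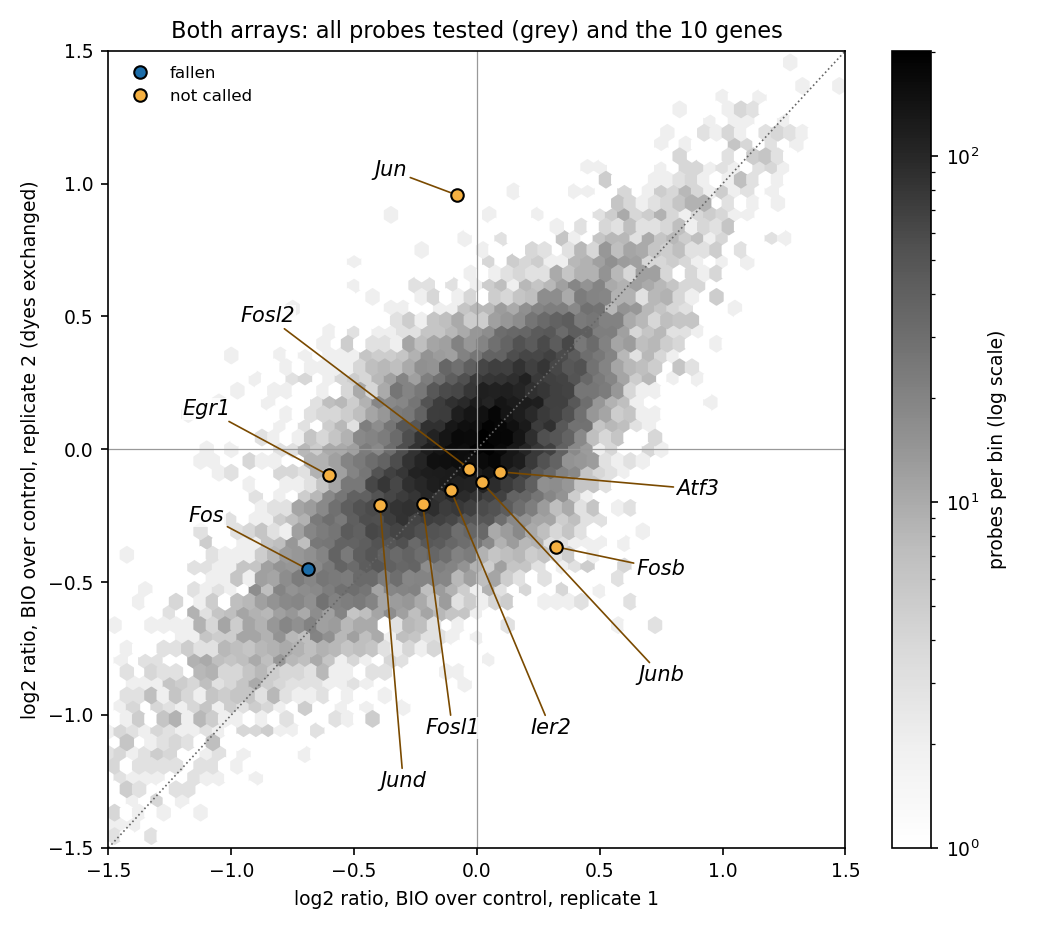
Log2 ratio of BIO over control in replicate 1 (x axis) and in replicate 2 (y axis, dyes exchanged); grey hexagons count all probes tested, 28384 inside the axes and 440 outside, and points are the 10 genes, blue if fallen and orange if not called. Most genes of the set lie inside the cloud near the dotted line of equal ratios. Jun lies far from this line, and Fosb and Egr1 lie toward the rim of the cloud.

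Other immediate early genes moved in both directions. Of 24 tested, 5 rose and 9 fell (limma), with a median of -0.25, where 9.14% of all genes tested rose and 14.8% fell. Klf2, a zinc finger factor of endothelial cells, had signals of 1569 in control against 211 with BIO in replicate 1 and of 1913 against 339 in replicate 2, and fell by 2.63 on the log2 scale (SE 0.13, adjusted p = 3.18e-05). Ctgf, a matrix protein induced by TGF-beta and YAP, fell by 1.80 (adjusted p = 0.000159) and Myc, a growth regulator, by 0.95 (adjusted p = 0.000872). Egr2 (-0.47), a relative of Egr1, fell as well, and so did Dusp1 (-0.56), a phosphatase that switches off MAP kinases. Egr4, another relative, was counted among the 9 but was well above background with BIO on 1 array only, so that the size of its difference is uncertain. The others of the 9 were Klf6 (-0.61), Klf4 (-0.53) and Cyr61 (-0.36), also named after their values were seen. The 5 genes that rose were Arc (0.72), Ier3 (0.67), Nr4a2 (0.67), Nr4a1 (0.52) and Ier5 (0.47), of which the last 3 were named after their values were seen. The nuclear receptor genes Nr4a1 and Nr4a2 were thus higher on both arrays, and Klf2 and Egr2 were lower on both.

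Of the 11 tested partners and competitors of AP-1 among the leucine zipper factors, 1 rose and 3 fell, with a median of -0.25. The shares over all genes tested were 9.14% risen and 14.8% fallen. Maff, a small MAF protein, had signals of 1219 in control against 460.1 with BIO in replicate 1 and of 1255 against 597 in replicate 2. It fell by 1.24 (adjusted p = 0.000395, limma) and was the gene of this list that was also at least 2-fold lower on both arrays. The large MAF factor Maf fell by 1.08 (adjusted p = 0.000603) and Batf, which competes with FOS for JUN, by 0.66 (adjusted p = 0.00750). Mafg, another small MAF protein, rose by 0.56 (adjusted p = 0.00889), and its other 3 tested probes rose too. Jdp2, which represses AP-1 sites, had a value of -0.27 and gave no call.

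Upstream of the set, all calls at the brightest probes were falls. Over all genes tested, falls (14.8%) were also more frequent than rises (9.14%). Of 8 factors that switch on immediate early genes, 0 rose and 2 fell (limma), with a median of -0.06. The ETS factor Elk3 fell by 0.63 (adjusted p = 0.00736) and Elk1 by 0.41 (adjusted p = 0.0297), although a dimmer probe of Elk1 stood at 0.09. Srf, the serum response factor itself, stood at 0.00 ± 0.111, and its cofactor gene Mkl2 at -0.18. Of 14 MAP kinase genes, 0 rose and 4 fell, with a median of -0.18. These were Mapk10 (-0.44), a JNK gene, and the kinases Rps6ka1 (-0.41), Rps6ka3 (-0.63) and Rps6ka5 (-0.45), which act below ERK and p38. Dimmer probes of Creb1 (0.40) and of Mapk8 (0.63), a JNK gene, rose while their brightest probes gave no call. Of the dimmer probes of Rps6ka3, those at -0.85 and -1.37 fell and that at 0.05 gave no call, and Map2k1, a kinase of ERK, gave none at -0.28.

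Of 9 regulators of JUN and EGR1 proteins, 1 rose and 3 fell, with a median of -0.14 (all genes tested: 9.14% risen, 14.8% fallen). Fbxw7, which binds GSK3-phosphorylated JUN for degradation, had signals of 951 in control against 1578 with BIO in replicate 1 and of 1275 against 1748 in replicate 2. It rose by 0.53 (adjusted p = 0.0167, limma), and a dimmer probe stood at 0.28 with no call. Gsk3b, the kinase gene that BIO targets at the protein level, stood at 0.35 (adjusted p = 0.0512) and gave no call. Its dimmer probes stood at 0.22 and 0.00, also with no call. Nab1 and Nab2, which repress EGR1, fell by 0.44 and 0.43, and Cops5, which stabilizes JUN, by 0.39.

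Among the target genes of AP-1 reported here, Plau and its receptor gave the lowest values. Of 11 tested, 1 rose and 5 fell, with a median of -0.28 (all genes tested: 9.14% risen, 14.8% fallen). Plau, the protease urokinase, had signals of 331 in control against 118 with BIO in replicate 1 and of 435 against 135 in replicate 2, and fell by 1.48 (SE 0.109, adjusted p = 0.000109, limma). Its receptor gene Plaur fell by 0.70. The growth factor gene Hbegf fell by 0.66 and the metallothionein gene Mt2 by 0.62. The probes of Cd44 disagreed, with a fall of 0.62 at the brightest and a rise of 0.70 at a dimmer probe. The 1 gene counted as risen, the cytokine gene Lif, had signals of at most 18.5 and was well above background in control on 1 array only, so that its difference is uncertain. Mmp3, Mmp10, Mmp13 and Areg were not well above background on both arrays in either channel and were not tested. All these genes have regulators besides AP-1.

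**Figure D4:**
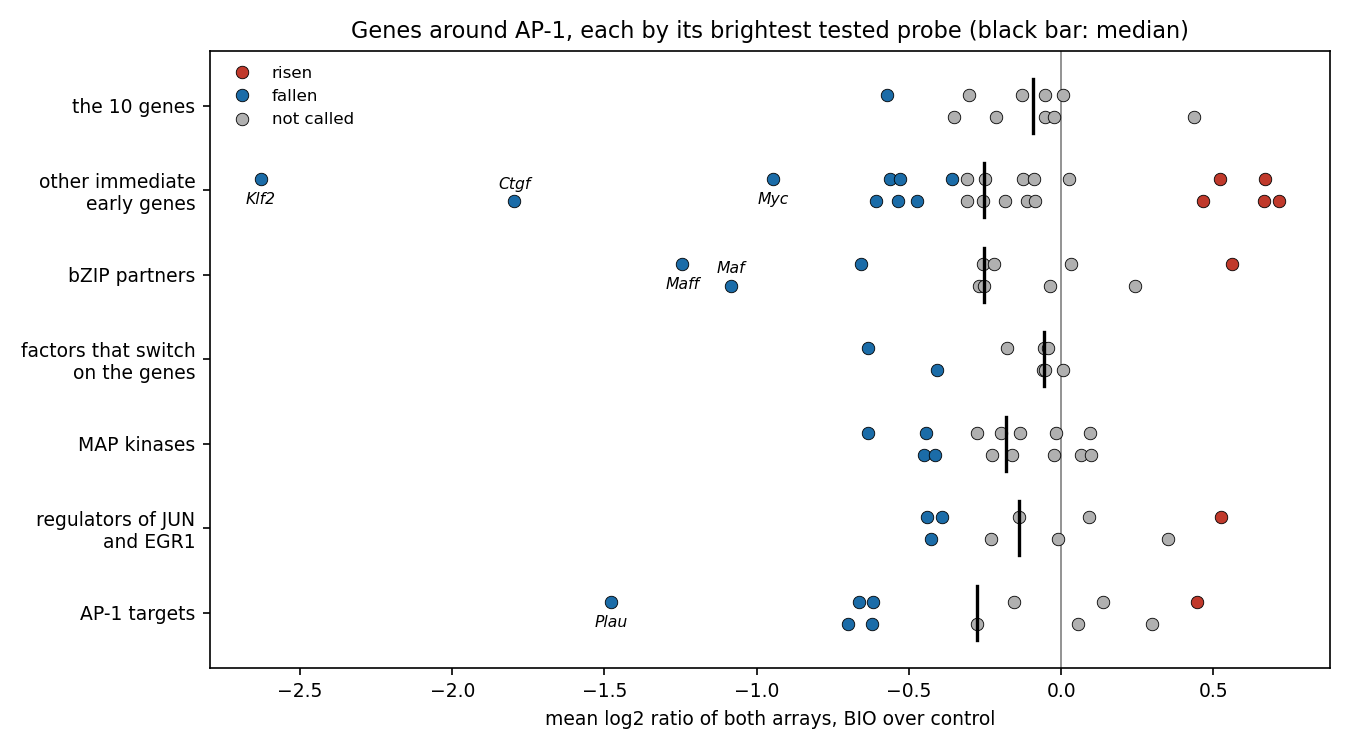
Mean log2 ratio of both arrays (x axis, BIO over control) for the genes around AP-1, each by its brightest tested probe, 1 row per list; colors give the limma call at an adjusted p below 0.05 and black bars the median of each list. The 10 genes lie between -0.57 and 0.44 around a median of -0.09, and the AP-1 targets have a median of -0.28.

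Cell type markers moved in the same samples, in which 9.14% of all genes tested rose and 14.8% fell. All 8 endothelial markers fell, each at least 2-fold on both arrays, and their summed signal was 29430 and 35020 in the controls against 6050 and 10622 with BIO. Of 8 macrophage markers 4 fell (summed signal 5859 and 6749 in control, 3791 and 5676 with BIO), and of 4 erythroid markers 1 fell (1226 and 1491 against 1173 and 922). Of 6 neuronal and Schwann cell markers 4 fell (33587 and 37005 against 24532 and 33752). No marker of these lists that was on the array was at 0, and none rose. Markers of the ureter itself were present. Of 6 mesenchymal markers 4 fell (summed signal 179709 and 193230 in control, 104989 and 122832 with BIO), with a median log2 ratio of -0.62. Tbx18 (-0.22) and Foxf1 (-0.16) gave no call. Of 6 epithelial markers 4 fell (81011 and 81601 against 45621 and 55128), with a median of -0.90. Epcam (0.02) and Gata3 (-0.10) gave no call. The part of these cell types in the values of Fos, Klf2, Maff, Plau and the other genes that fell was not tested.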

How the data were processed

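RNA of BIO-treated and control ureter explants was compared on 2 Agilent 2-color arrays with exchanged dyes. The deposited scanner tables hold spot intensities, which the authors read with Agilent Feature Extraction 10.7.3.1 (submitters' processing notes). The columns of spot means and local background used for the test hold no further normalization, unlike the processed signals. The authors' value table holds a signed fold score per probe, whose centring and direction are not stated in the sources used here. It followed the processed log2 ratio BIO over control (Pearson 0.988 and 0.984 across probes), had a median of 1, and served as an alternative only. Probe coordinates are mm9 per the file headers.

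The R (4.3.3) package limma (3.58.1) was used. Spot means underwent normexp correction (median local background, offset 50) and loess normalization within the array. Control and outlier spots had weight 0 and were left out, and the remaining of 4 spots per probe were averaged. Probes were tested if well above background (a share over 0.5 of spots) in the same group's channel on both arrays. The ratio of the swapped array was turned and tested against 0 (lmFit, eBayes, two-sided, Benjamini-Hochberg over 28824 probes, 0.05). A gene is represented by its brightest tested probe. Processed signals printed are the scanner's background-subtracted and dye-normalized values, averaged over spots. On both arrays 70.1% to 80.9% of the spots were well above background, 0 were saturated, and the median SE of a log2 ratio was 0.111; the number of arrays limits the precision.

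The 10 genes, the related lists and the tests were chosen with earlier results of these data known. All 10 genes are named, and from each related list up to the 5 with the largest log2 ratio plus those whose role bears on a member. Of the other immediate early genes, every called gene is named. Of the list of AP-1 targets, 1 gene is not reported here and enters neither its counts nor its median. The procedure was tested on simulated data with bright probes and changes larger than that of Fos. The simulation did not assess smaller changes, dim probes or dye differences of single probes. Its variation between arrays was set below that of the data. The alternatives were median centering, processed signals, the score table, an offset of 16, no or a stricter filter, outlier spots kept, the mean of a gene's probes, and each array left out.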

Additional observations from a re-analysis of the deposited data

How the results depend on the processing

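The number of the 10 genes that rose was 0 under every alternative that gave a test. The number that fell was 1 under all of these but the processed signals, which gave 0; with the deposited score table the 1 gene was Ier2 (-0.14, adjusted p = 0.0478, limma) and not Fos. Fos was called in 6 of 8 alternatives with a test, with adjusted p from 0.00619 to 0.160 and log2 ratios, over all alternatives, from -0.70 to -0.45. Fos has a single probe, so the mean of a gene's probes could only repeat its main result. The looser and the stricter filter left its ratio at -0.57 and changed only the probes tested along with it. Jund moved to -0.05 with median centering (adjusted p = 0.964). The median of the 10 genes was -0.13 with median centering, -0.0098 with processed signals and 0 with the score table. With 1 array left out, where no test was possible, the median of the 10 genes was -0.14 to -0.094. For probes above background in both channels of both arrays the median was -0.052, over 9 genes, since Fosl1 drops out. Over the whole table, 6696 probes were called, 3532 with median centering, 2506 with processed signals and 4334 with the score table, of which 1358 were shared. The split of 2579 risen to 4117 fallen became 2557 to 1777 with the score table, whose values are rounded to 1 decimal, so that equal values on both arrays have no spread. The medians of the related lists were not reversed by median centering or processed signals. The test was already paired, because each array holds 1 control and 1 BIO sample and its ratio is the pair. A dye term would leave no residual degree of freedom. The causes of these differences were not tested.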
